A study of Canis lupus familiaris with 42 samples.

Results

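MARCO and 8 other receptors and surface or lysosomal proteins of macrophages and monocytes were followed in canine sarcomas, sampled after a first hyperthermia treatment and before it. The genes are MARCO, MSR1, CD163, MRC1, CD36, CSF1R, FCGR1A, CD68 and CD14, and all 9 were measured among 15115 named genes. They were listed by name with earlier results of these data known. The probe set of each gene was chosen by its mean level over all 42 arrays, the highest among those that carry its symbol alone, and not by its change.

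The tumours were sampled after hyperthermia, which was given as an adjuvant to radiotherapy, and before it, with no treatment. Each of 21 tumours has 1 Affymetrix array of bulk RNA at each time, and the tumours are numbered 1 to 21. All tumours arose spontaneously, and the labels give neither the sarcoma type nor the age or breed of the dogs. They also do not give the time between the samples or say whether radiation came in between, and repeat samples of untreated tumours were not analysed here. Values are log2 levels after RMA, so a change of 1 is a doubling of the array signal. In bulk tissue, more cells of a type and more RNA per cell cannot be told apart.

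Macrophages take up particles, dying cells and modified lipoproteins through scavenger receptors, and sense bacteria and antibodies through pattern and Fc receptors. MARCO and MSR1 are class A scavenger receptors with a collagen-like stalk, best described in mice and humans, where MARCO marks only some macrophage populations. CSF1R, the receptor for CSF1 and IL34, keeps cells of this lineage alive and growing. Macrophages are common immune cells of sarcomas.

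The arrays fell into 2 technical groups by the level of the poly-A spike-in controls, which are transcripts mixed into each RNA sample. In 9 tumours the spike-in level was between 6.23 and 8.04 (high spike-in), and in 12 tumours it was between 3.20 and 4.36 (low spike-in). No label names a batch. Both arrays of a tumour fell in the same group in all 21. The mean level of 8 fibroblast markers lay between 10.1 and 11.7 after hyperthermia and between 10.4 and 11.6 before. These levels describe the tissue and do not tell tumour from surrounding tissue. With tumours as pairs, limma called 2558 of 42924 probe sets at an adjusted p under 0.05 (Benjamini-Hochberg over all probe sets), 5.96% of all, with 2.97% higher and 2.99% lower. Among the 15115 genes 7.15% were called, 4.02% higher and 3.13% lower.

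MARCO had the third largest rise of all named genes. After hyperthermia its level had a lowest value of 4.52, a median of 7.25 and a highest value of 9.06, against 4.41, 4.97 and 9.25 before treatment. After hyperthermia 19 of 21 tumours lay above 5.28, the median of all probe sets, against 7 before treatment. The single high value before treatment was tumour 15, at 9.25, and the next highest were 6.29 in tumour 18 and 6.23 in tumour 11. The groups overlap, also without tumour 15, with the lowest levels after treatment in tumours 5 and 9, at 4.52 and 4.71.

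The mean change of MARCO was 1.86 ± 0.30 on the log2 scale, a 3.63-fold rise (SE, n = 21, limma adjusted p = 0.00117). It was higher after treatment in 19 tumours and at least doubled in 15. The rises ran from 0.22 in tumour 9 to 4.59 in tumour 21, with 4.41 in tumour 3, 4.07 in tumour 12 and 3.39 in tumour 17. MARCO was lower after treatment in tumour 15, by 1.06 on the log2 scale, and in tumour 5, by 0.36. Its other probe set gave a change of 1.90 ± 0.32 and the same count of tumours. In the 21 fits that each left out 1 tumour, the change was between 1.72 and 2.005 and the call was kept.

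**Figure D1:**
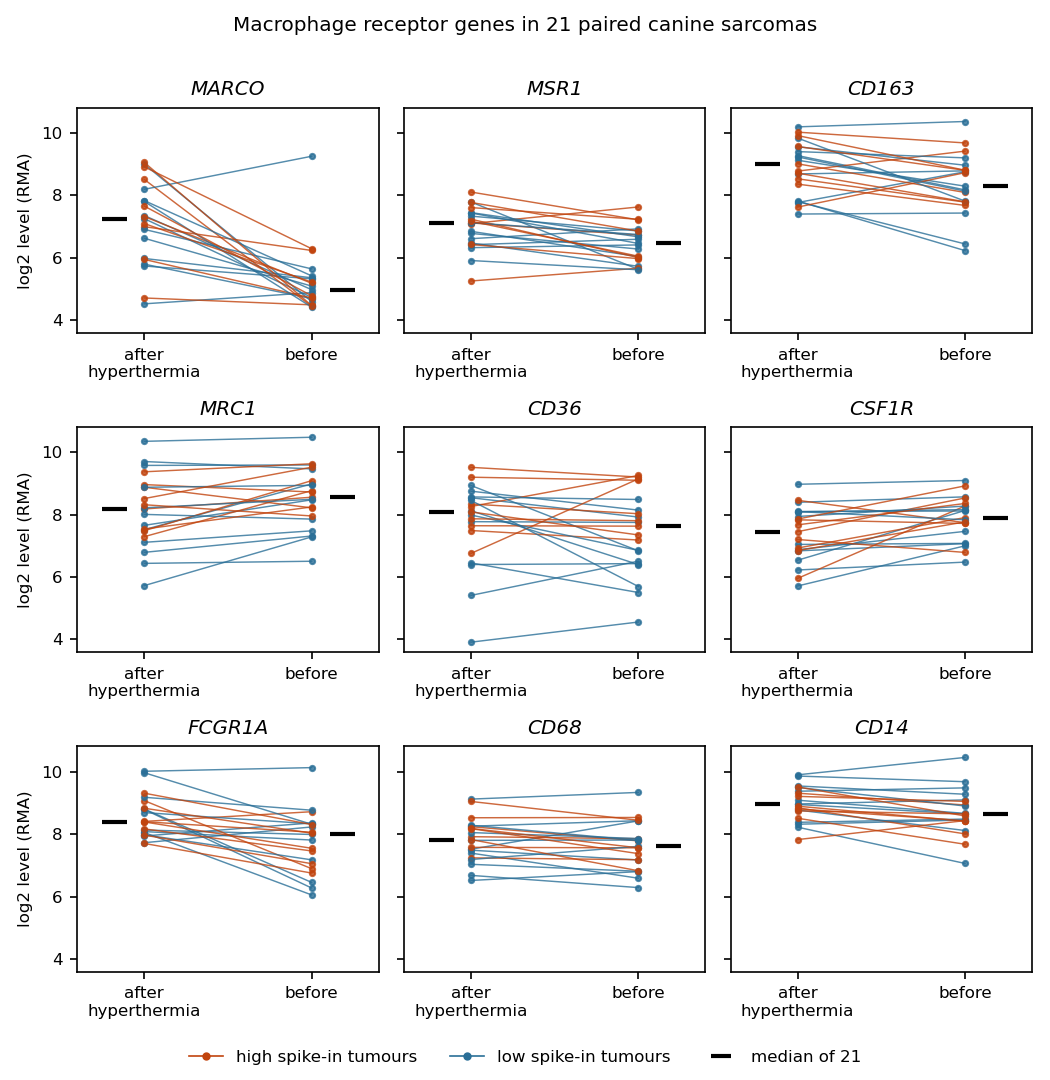
Log2 level (vertical axis) of each gene after hyperthermia (left) and before (right). Each line is 1 tumour, coloured by spike-in group, and black bars are medians over 21 tumours. MARCO medians are 7.25 after and 4.97 before treatment, with tumour 15 the high line at 9.25 before treatment.

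MSR1, the other class A scavenger receptor, rose less. Its levels after hyperthermia were 5.25 at the lowest, 7.12 at the median and 8.11 at the highest, against 5.61, 6.46 and 7.63 before treatment. The groups overlap widely, and only 3 tumours after treatment exceed the highest level before. The mean change was 0.52 ± 0.13 (SE, n = 21, limma adjusted p = 0.0151), higher in 16 tumours, with the largest rise of 2.16 in tumour 3. Of its 5 falls the largest was by 0.53 in tumour 11. MSR1 lost its call in the high spike-in tumours alone (limma adjusted p = 0.138) and in the low spike-in tumours alone (0.240).

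CD163, the receptor that clears haptoglobin-haemoglobin complexes, had levels of 7.40 (lowest), 9.01 (median) and 10.2 (highest) after hyperthermia, against 6.23, 8.29 and 10.4 before. The lowest level was higher after treatment and the highest was not, and the groups overlap. The mean change of 0.54 ± 0.16 had a limma adjusted p = 0.0501 and did not pass, with 15 of 21 tumours higher. Of its 4 probe sets none passed, at changes from 0.24 to 0.54. It passed with the filter at the median level (limma adjusted p = 0.0332) and with array weights (0.0244). It also passed when tumour 1, 4, 5, 10, 11 or 15 was left out, with an adjusted p of 0.0215 at the lowest.

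CD36, a class B scavenger receptor for oxidised lipoproteins and fatty acids that endothelial cells, platelets and adipocytes also carry, moved far in single tumours. Its levels after hyperthermia were 3.91 (lowest), 8.09 (median) and 9.52 (highest), against 4.56, 7.63 and 9.26 before. The mean change of 0.32 ± 0.22 did not pass (limma adjusted p = 0.484), although 16 tumours were higher. The changes ran in both directions, with 2.76 in tumour 15 and 2.10 in tumour 17, and -2.39 in tumour 10. Tumour 15 is thus the tumour where CD36 rose most and MARCO fell most. The mean change of CD36 was -0.17 in the 9 high spike-in tumours, of which 7 were higher, and 0.69 in the 12 low spike-in tumours. The 2 lower tumours of the first group were tumours 10 and 11.

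FCGR1A, the high-affinity receptor for IgG, had the next largest change after MARCO. After hyperthermia its levels were 7.70 (lowest), 8.40 (median) and 10.02 (highest), against 6.05, 7.99 and 10.1 before treatment. No tumour was below 7.70 after treatment, and the SD between tumours was 0.67 after and 0.97 before, a difference that was not tested. The mean change was 0.81 ± 0.18 (SE, n = 21, limma adjusted p = 0.00904), with 17 tumours higher and rises above 2 in tumours 2, 3, 7 and 12. The 4 falls were small, at most by 0.51 in tumour 1.

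CD14, which hands lipopolysaccharide to Toll-like receptor 4, had levels of 7.83 (lowest), 8.95 (median) and 9.90 (highest) after hyperthermia, against 7.06, 8.65 and 10.5 before. Its mean change of 0.29 ± 0.10 did not pass (limma adjusted p = 0.0739), with 15 tumours higher. Without tumour 10 or without tumour 15 it did pass, with an adjusted p of 0.0271 at the lowest. CD68, a glycoprotein of lysosomes used to count macrophages in sections, had levels of 6.51 (lowest), 7.83 (median) and 9.12 (highest) after, against 6.29, 7.61 and 9.34 before. Its mean change of 0.19 ± 0.09 did not pass either (limma adjusted p = 0.267), with 14 tumours higher. The 95% interval of the CD68 change runs from -0.003 to 0.39.

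CSF1R fell. After hyperthermia its levels were 5.72 (lowest), 7.46 (median) and 8.98 (highest), against 6.48, 7.91 and 9.10 before. The mean change was -0.49 ± 0.15 (SE, n = 21, limma adjusted p = 0.0466), lower in 17 tumours. Its second probe set changed by -0.45 ± 0.13 (limma adjusted p = 0.0391). The call is marginal: it was lost in 13 of 21 fits with 1 tumour less (tumours 1, 2, 3, 4, 7, 10, 11, 12, 14, 16, 18, 20 and 21). Over all 21 fits the change was between -0.55 and -0.40 and the adjusted p was at most 0.0849. The largest changes were -2.32 in tumour 10 and -1.59 in tumour 1. Only tumours 8, 9, 17 and 19 were higher, with at most 0.72 in tumour 9.

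MRC1, the mannose receptor, had levels of 5.73 (lowest), 8.18 (median) and 10.4 (highest) after hyperthermia, against 6.51, 8.56 and 10.5 before. The mean change of -0.43 ± 0.14 just missed the threshold (limma adjusted p = 0.0584), with 16 tumours lower. Its 3 probe sets gave changes from -0.44 to -0.39, and none passed. The call was made in the fits without tumour 6, 8, 9 or 19, each of which has a higher level after treatment. Falls of at least 1 on the log2 scale were seen in 5 tumours, all of which also had a CSF1R fall of at least 1.

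**Figure D2:**
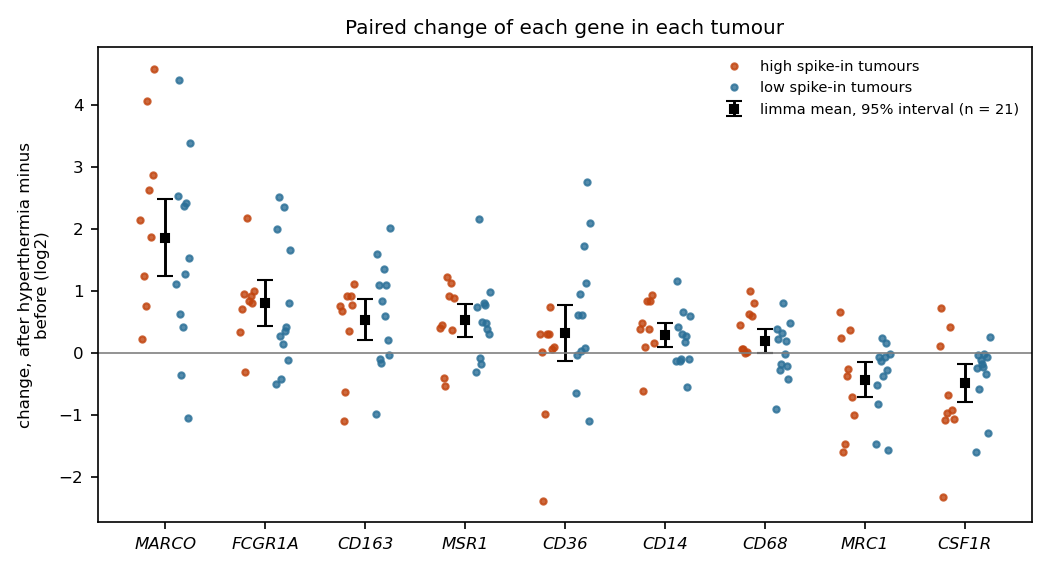
Change of each gene in each tumour (points, after hyperthermia minus before, log2), coloured by spike-in group, with the limma mean and its 95% interval as a square and bar (n = 21). Genes are ordered by mean change, from 1.86 for MARCO to -0.49 for CSF1R.

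In all, 3 of the 9 genes were called higher, 1 was called lower and 5 were not called. These counts stand beside 7.15% of all genes called, 4.02% higher and 3.13% lower, and nothing is read from them because the genes were listed with these changes known. The median change of the 9 was 0.32, against 0.01 over all 15115 genes. Tumours differed in how many of the 9 moved up: all 9 were higher in tumours 8, 9 and 19, and 1 was higher in tumours 1 and 5. In tumour 1 the gene that was higher was MARCO (1.11), beside changes of -1.59 for CSF1R and -1.47 for MRC1. In tumour 5 every one of the 9 genes moved by at most 0.42.

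**Figure D3:**
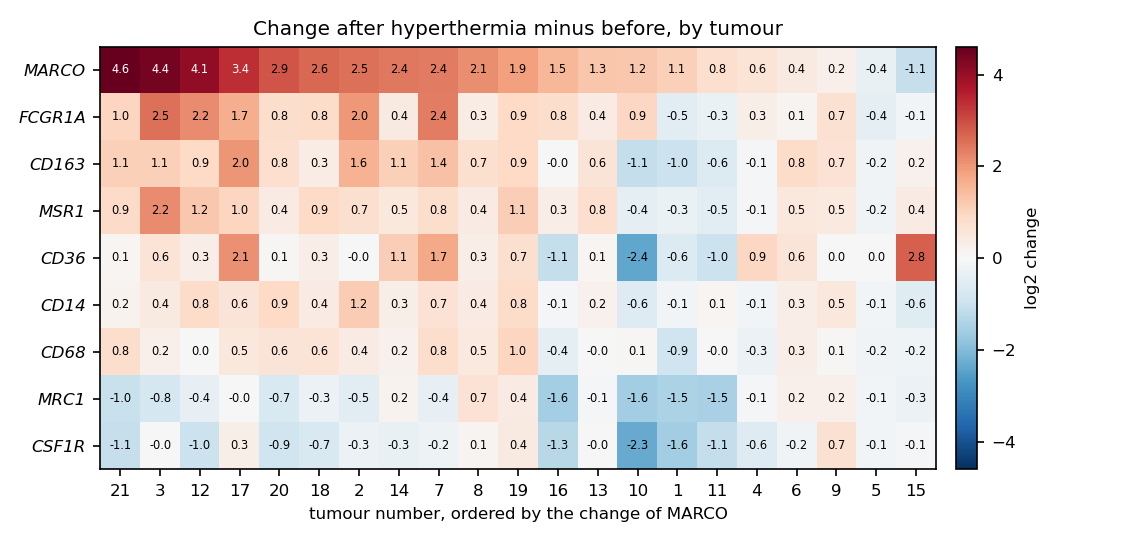
Log2 change after hyperthermia minus before for each gene (rows) in each tumour (columns, ordered by the change of MARCO). The 2 rightmost columns, tumours 5 and 15, are those where MARCO was lower, and the bottom rows, MRC1 and CSF1R, are mostly below 0.

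The size of the MARCO change was set against that of each other gene in the same tumours, 8 differences in all, given as a description because MARCO was singled out with its change known. MARCO changed more than CSF1R by 2.35 ± 1.75 (SD, n = 21), in 18 tumours, and 15 tumours had MARCO higher and CSF1R lower. Against MRC1 the difference was 2.29 ± 1.73 in 18 tumours, and against CD68 it was 1.67 ± 1.34 in 19 tumours. The smallest difference was that against FCGR1A, 1.05 ± 1.05 in 19 tumours, and that against CD36 varied most, 1.54 ± 1.87 in 17 tumours. Probe sets respond with different slopes to the same change in RNA, so these differences are between array signals. All 8 differences were above 0 in both spike-in groups. Against CSF1R the mean was 2.91 in the 9 high spike-in tumours and 1.92 in the 12 low spike-in tumours.

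Within spike-in groups MARCO changed by 2.27 ± 1.45 in the 9 high spike-in tumours, where all were higher, and by 1.55 ± 1.56 in the 12 low spike-in tumours, where 10 were higher (SD). The difference between the groups was 0.71 ± 0.60 and did not pass (SE, limma adjusted p = 0.850 over all probe sets). FCGR1A changed by 0.83 in the high and 0.79 in the low spike-in tumours, MSR1 by 0.49 and 0.55, and CSF1R by -0.64 and -0.37. CD68 had the smallest unadjusted p for a difference between the groups, with changes of 0.40 in the high and 0.03 in the low spike-in tumours (limma unadjusted p = 0.0503, adjusted p = 0.703). In the low spike-in tumours alone limma called 0 of 42924 probe sets, with 4989 at an unadjusted p under 0.05. MARCO there had an unadjusted limma p of 0.00103.

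Over tumours the changes of the 9 genes are described as 2 patterns that share some members, around MARCO and around CSF1R. The genes were not clustered. Of 36 pairs, 21 had a correlation that passed (permutation test, adjusted over 36 pairs), and r ran from -0.11 to 0.83. The tightest pair was MRC1 and CSF1R, with r = 0.833 and rho = 0.814 (permutation adjusted p = 0.00036 for r and 0.0009 for rho, n = 21). Without tumours 10 and 16, the farthest on MRC1, r was 0.775, and within the high and low spike-in tumours it was 0.886 and 0.781. CD36, whose mean change was above 0, also went with CSF1R (r = 0.671, rho = 0.514, permutation adjusted p = 0.00459 and 0.0333). With MRC1 it had r = 0.62 and rho = 0.542 (permutation adjusted p = 0.00732 and 0.0248). Its r with CSF1R was 0.544 without tumours 10 and 15, and its r with MRC1 was 0.426 without tumours 10 and 16. The changes of a tumour come from the same pair of arrays, so its genes share RNA quality and normalisation.

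MARCO went with FCGR1A, with r = 0.737 and rho = 0.774 (permutation adjusted p = 0.00151 and 0.00108, n = 21), 0.787 without tumours 15 and 21, and 0.619 and 0.8299 within the high and low spike-in tumours. Its relation with MSR1 had r = 0.68 and rho = 0.674 (permutation adjusted p = 0.00432 and 0.00396), and 0.638 and 0.758 within the groups. CD163 and CD14 each had r = 0.57 with MARCO (permutation adjusted p = 0.0163 for both), and rho was 0.681 for CD163 and 0.594 for CD14. With CSF1R the MARCO change had r = -0.095 and rho = -0.109 (permutation adjusted p = 0.724 and 0.657), and with MRC1 r = -0.106 and rho = -0.183 (permutation adjusted p = 0.706 and 0.477). Neither relation passed, which does not show that the changes are unrelated. With CD36 r was 0.024 and rho 0.171 (permutation adjusted p = 0.943 and 0.494), but r was 0.36 without tumours 15 and 21, and 0.41 in the high and -0.029 in the low spike-in tumours.

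By r CD163 passed with genes of both patterns. By rho it passed with neither CSF1R nor MRC1 (rho = 0.304 with MRC1, permutation adjusted p = 0.239). It went with MSR1 (r = 0.755, rho = 0.796, permutation adjusted p = 0.0009 for both) and with CD14 (r = 0.748, rho = 0.755, permutation adjusted p = 0.0009 and 0.00117). Its r with CSF1R was 0.644 and its rho 0.43 (permutation adjusted p = 0.00576 for r and 0.0881 for rho). That relation rests in part on tumours 1 and 10, since r was 0.374 without them, although it was 0.631 and 0.716 within the high and low spike-in tumours.

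**Figure D4:**
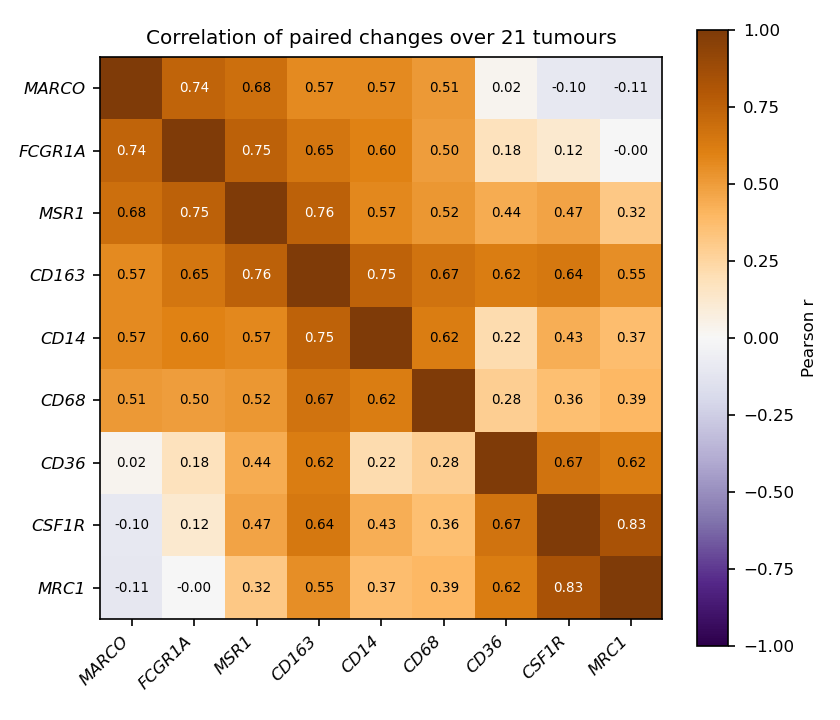
Pearson r of the paired changes (after hyperthermia minus before) for each pair of genes over 21 tumours, from purple (below 0) to orange (above 0). MRC1 and CSF1R reach 0.83, MARCO and FCGR1A 0.74, and MARCO lies near 0 with CSF1R, MRC1 and CD36, the last at 0.36 without tumours 15 and 21.

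The levels after treatment showed MARCO with MSR1 as well (r = 0.742, rho = 0.809, permutation adjusted p = 0.00036 for rho, n = 21). Before treatment the same pair had r = 0.318 and rho = 0.344 (permutation adjusted p = 0.185 for rho). Whether these correlations differ was not tested. Before treatment MARCO went with FCGR1A at r = 0.626, but rho was 0.394. Without the 2 tumours farthest on MARCO, 15 and 18, r was 0.412. Tumour 15 had the highest level of both genes before treatment, 9.25 for MARCO and 10.1 for FCGR1A. Tumour 18 had MARCO at 6.29 and FCGR1A at 7.55, below the FCGR1A mean of 7.75. The r without each of them alone was not computed.

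The genes most like MARCO in their change over the 21 tumours were taken from 9169 named genes at or above the median level. They were GGH, gamma-glutamyl hydrolase (r = 0.917), the protease inhibitor SERPINA1 (r = 0.855), the integrin ITGAM (r = 0.814) and the calcium-binding S100P (r = 0.804). The others of the first 10 were ATP6V1B2, a subunit of the vacuolar proton pump (r = 0.796), TPD52 (r = 0.789), the phagosome metal transporter SLC11A1 (r = 0.785), cathepsin B, CTSB (r = 0.77), TLR4 (r = 0.768) and the kinase LIMK2 (r = 0.765). Being like MARCO in pattern did not require a change as large: GGH changed by 0.19 ± 0.09 and was not called (limma adjusted p = 0.223), while SERPINA1 rose by 1.54 ± 0.26 (limma adjusted p = 0.00136). Within the high and low spike-in tumours the r of GGH was 0.978 and 0.892. The 5 genes most like CSF1R were the lysosomal lipase LIPA (r = 0.891), the complement receptor VSIG4 (r = 0.869), STING1 (r = 0.833), the inflammasome adaptor PYCARD (r = 0.821) and the lysosomal fucosidase FUCA1 (r = 0.805), none of which was called. These values are descriptions, chosen as the highest of many.

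Other genes of macrophages were read from lists. Of 25 measured other macrophage and monocyte markers 3 rose, 1 fell and 21 did not pass, with a median change of 0.02, against 4.02% of all genes called higher, 3.13% called lower and a median of 0.01. The same shares stand beside the counts of the other lists. The lipid-sensing receptor TREM2 was at 7.25 ± 0.95 after and 6.53 ± 0.77 before treatment (SD, n = 21), a change of 0.72 ± 0.13 (SE, limma adjusted p = 0.00308, 16 tumours higher). SLC11A1 rose by 0.76 ± 0.15 in 17 tumours (limma adjusted p = 0.00541) and ITGAM, which neutrophils carry too, by 0.35 ± 0.10 in 16 tumours (limma adjusted p = 0.0379). ITGAM lost its call in 10 fits with 1 tumour less (without tumour 2, 3, 7, 12, 14, 16, 17, 19, 20 or 21), with an adjusted p of 0.0732 at the highest. Its call was also lost with RNA quality as a covariate (limma adjusted p = 0.0547). The costimulatory ligand CD80 fell by 0.41 ± 0.10 on the log2 scale (limma adjusted p = 0.0185, 6 tumours higher), and lost its call with tumour as a random block (limma adjusted p = 0.0696). The complement genes C1QA (-0.43 ± 0.14), C1QB (-0.53 ± 0.18) and C1QC (-0.42 ± 0.17), named after their values were seen, did not pass (limma adjusted p = 0.076, 0.0905 and 0.163). Also named afterwards, CTSS (0.41 ± 0.13), LAPTM5 (0.40 ± 0.13), GPNMB (0.40 ± 0.13) and TYROBP (0.33 ± 0.12) had changes above 0. They did not pass either (limma adjusted p = 0.069, 0.0612, 0.0819 and 0.118). Of the 25 markers, 11 had an unadjusted limma p under 0.05.

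Among 15 other scavenger and lectin receptors 0 rose, 1 fell and 14 did not pass, with a median change of -0.02 and 3 at an unadjusted limma p under 0.05. The one that fell was TIMD4, a phosphatidylserine receptor of resident macrophages in mice, at 6.13 ± 1.11 after and 6.77 ± 0.81 before treatment (SD), a change of -0.64 ± 0.16 (SE, n = 21, limma adjusted p = 0.0161, 6 tumours higher). Of 6 Fc receptor genes and signalling chains 1 rose and 0 fell, with a median of 0.25. It was FCER1A, the IgE receptor alpha chain of mast cells and some myeloid cells (0.46 ± 0.12, limma adjusted p = 0.0265, 18 tumours higher), whose call was lost without tumour 20 (limma adjusted p = 0.0518).

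Of 9 genes of the lipopolysaccharide receptor complex and the Toll-like receptors 1 rose and 1 fell, with a median of 0.16. LY96, the co-receptor that binds lipopolysaccharide together with Toll-like receptor 4, rose by 0.67 ± 0.16 (limma adjusted p = 0.0127, 17 tumours higher). IRAK3, a brake on Toll-like receptor signalling, fell by 0.44 ± 0.10 on the log2 scale (limma adjusted p = 0.0096, 4 tumours higher). TLR4 itself changed by 0.25 ± 0.14 and did not pass (limma adjusted p = 0.344). In the list of the CSF1 receptor axis and GM-CSF, limma called 0 of 10 genes, with 1 at an unadjusted p under 0.05, and the median was -0.02. That gene was KLF4 (-0.32 ± 0.10, limma adjusted p = 0.0619). The ligands of CSF1R, CSF1 (-0.08 ± 0.06) and IL34 (-0.19 ± 0.10), named after their values were seen, did not pass (limma adjusted p = 0.51 and 0.325).

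For lipid handling, 1 of 12 genes rose and 0 fell, with a median of 0.07. PLIN2, the coat protein of lipid droplets, rose by 0.63 ± 0.14 (limma adjusted p = 0.00918, 18 tumours higher). FABP5, a fatty acid carrier, had the largest change of the list, 0.88 ± 0.27, and did not pass (limma adjusted p = 0.0524). APOE (-0.54 ± 0.17) and LPL (-0.41 ± 0.18), named after their values were seen, were lower and did not pass (limma adjusted p = 0.0538 and 0.1995). Of the 12 lipid genes, 6 had a change above 0 and 6 had an unadjusted limma p under 0.05. For the clearance of haemoglobin, haem and iron, 3 of 9 genes rose and 0 fell, with a median of 0.15 and all 9 changes above 0, against 4.02% of all genes called higher and 53.1% with a change above 0. The ferritin light chain FTL rose by 0.42 ± 0.07 (limma adjusted p = 0.00118), the biliverdin reductase BLVRB by 0.62 ± 0.14 (limma adjusted p = 0.00925) and the haem oxygenase HMOX1 by 0.41 ± 0.09 (limma adjusted p = 0.00884), each in 17 or 18 tumours. Of the list, FTH1 (0.006) and BLVRA (0.005) hardly changed. HMOX1 had a mean level of 4.75, below the median of all probe sets, 5.28. Many cell types express these genes.

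**Figure D5:**
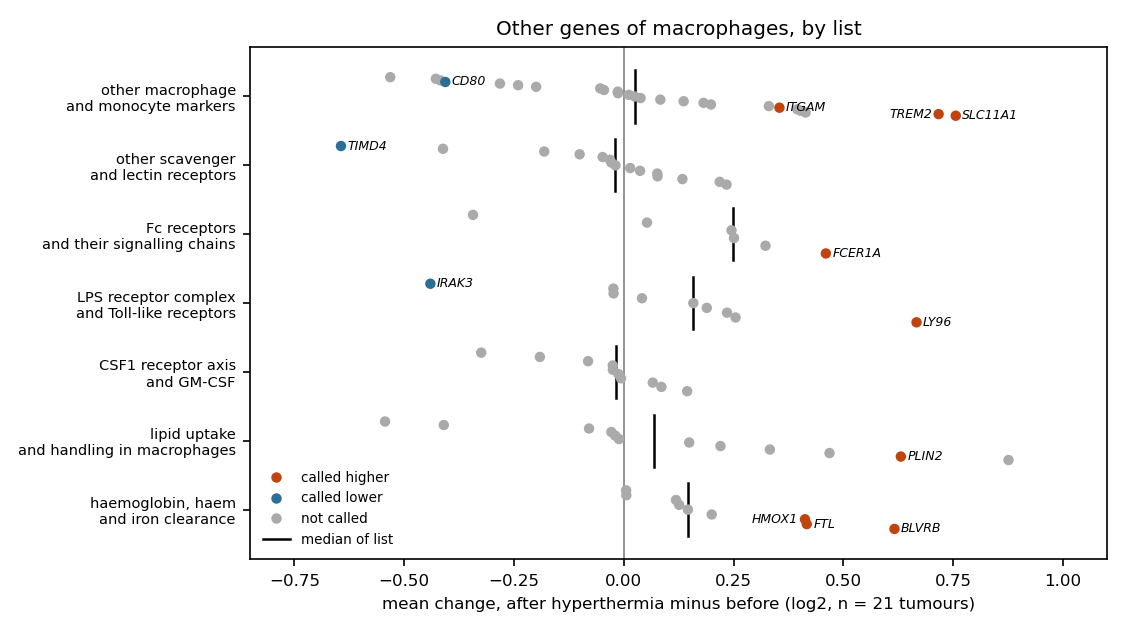
Mean change of each measured gene of 7 lists (points, after hyperthermia minus before, log2, n = 21 tumours). Orange points were called higher, blue points lower, grey points were not called, and black bars are list medians, which lie between -0.02 and 0.25.

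Some markers of neutrophils and T cells were also called. Of 5 measured neutrophil markers 2 rose and 0 fell, against 4.02% of all genes called higher. They were S100A9, which rose by 1.08 ± 0.32 (limma adjusted p = 0.0454) and the receptor TREM1 by 0.61 ± 0.13 (limma adjusted p = 0.00774). S100A9 stayed called only when the tumour left out was 6, 8, 9, 11, 13 or 15, and lost its call in the other 15 fits and under 7 of 10 other settings. The mean level of these 5 was between 5.22 and 9.25 after and between 5.06 and 10.3 before treatment. Its change went with that of MARCO, with r = 0.681 and rho = 0.635 (permutation adjusted p = 0.0126 and 0.039 over 18 relations examined after the data were seen, n = 21). Without the 2 farthest tumours r was 0.62, and within the high and low spike-in tumours it was 0.825 and 0.654. FCGR1A had r = 0.601 and rho = 0.582 with the same mean (permutation adjusted p = 0.0368 and 0.039). MRC1 had r = -0.457 and rho = -0.587 (permutation adjusted p = 0.231 and 0.039), and CSF1R r = -0.366 and rho = -0.527 (permutation adjusted p = 0.272 and 0.0669). The part of neutrophils in the MARCO and FCGR1A results was not tested.

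Of 8 T cell markers 0 rose and 4 fell, namely CD3D, CD3E, CD3G and LCK, against 3.13% of all genes called lower. CD3E lost its call in 13 of 21 fits with 1 tumour less (without tumour 1, 2, 4, 5, 12, 13, 15, 16, 17, 18, 19, 20 or 21), with a random tumour block (limma adjusted p = 0.0906) and with the RNA quality covariate (0.0706). CD3G lost its call without tumour 1, 20 or 21. In the high spike-in tumours alone all 4 lost their calls (limma adjusted p = 0.184 for LCK and 0.1405 for CD3D). CD3D, CD3G and LCK had mean levels of 4.325, 4.024 and 4.725, below the median of all probe sets, 5.28. The 8 markers had a mean level between 4.14 and 5.38 after and between 4.43 and 6.39 before treatment. Their change had r = 0.246 and rho = -0.077 with MARCO (permutation adjusted p = 0.465 and 0.956), and the sign differed between the spike-in groups, -0.825 in the high and 0.602 in the low spike-in tumours. No marker of dendritic cells (7 measured), B cells (5), mast cells (5), endothelial cells (8), adipocytes (6), fibroblasts (8) or osteoclasts (4) was called by limma, and 1, 0, 1, 2, 0, 4 and 0 of them had an unadjusted p under 0.05. The adipocyte markers lay between mean levels of 4.49 and 5.23 after and between 4.45 and 5.04 before treatment, and endothelial markers between 5.92 and 8.13 after and between 6.12 and 8.64 before. Their part in the changes of CD36 and MRC1 was not tested.

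RNA quality was read from the 3′ minus 5′ signal of control probe sets for actin and GAPDH, which changed by 0.06 ± 0.27 (SD, n = 21). It changed by 0.21 ± 0.25 in the 9 high spike-in tumours, with 8 higher, and by -0.05 ± 0.24 in the 12 low spike-in tumours, with 4 higher. It had r = 0.126 and rho = 0.213 with the change of MARCO (permutation adjusted p = 0.742 and 0.549 over 9 relations). The largest relation was that with MRC1, r = -0.457 and rho = -0.49 (permutation adjusted p = 0.256 and 0.187), with -0.824 in the high and -0.179 in the low spike-in tumours. With the contrast as a covariate MARCO, MSR1 and FCGR1A kept their calls. CSF1R changed by -0.42 with the covariate and by -0.49 without it, and the limma adjusted p was 0.0793 with it.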

How the data were processed

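The deposited table holds log2 expression values that the authors made with RMA in Affymetrix Expression Console, per the submitters' processing notes; versions are not given in the sources used here. The 42 arrays were paired by the tumour code in the labels. Each tumour's 2 arrays matched each other best in 21 of 21 pairs (own r between 0.438 and 0.900). Whether any dog gave more than 1 tumour is not in the labels, and p-values cover only the variation among the tumours sampled. After leaving out 111 control probe sets, limma 3.58.1 in R 4.3.3 was fitted to 42924 probe sets with tumour as a block, and p-values were adjusted over all of them (Benjamini-Hochberg, threshold 0.05). Of these, 29254 carried 1 gene symbol, 439 several and 13231 none in the platform annotation; CD68 kept its older annotation. Each gene was read from its probe set with the highest mean. Correlations used 100000 permutations (SciPy 1.17.1). Other genes named are called list members (at most 3 in each direction, otherwise the largest change), all called markers of other cells, those most like MARCO or CSF1R, and a few named after their values were seen, as stated there. The members and lists were chosen with earlier results of these data known. Array number and the low levels of some probe sets limit the precision. Alternatives were the tumour block, filter, shrinkage, array weights, normalisation, the 3′ to 5′ contrast, spike-in groups, probe set choice and leaving out each tumour.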

Additional observations from a re-analysis of the deposited data

How the results depend on the processing

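The 9 genes' counts depended on the fit. With no replicate block, which ignores the pairing by tumour, limma called 30 probe sets, 1 of the 9 genes (MARCO) higher and 0 lower. The high spike-in tumours alone gave 1293 probe sets, 2 genes higher (MARCO and FCGR1A) and 0 lower. MSR1 lost its call there (limma adjusted p = 0.138). Of the list genes, ITGAM, CD80, TIMD4, IRAK3 and BLVRB also lost their calls there (limma adjusted p = 0.0705, 0.0964, 0.136, 0.0585 and 0.0592). The low spike-in tumours alone gave 0 probe sets, 0 genes higher and 0 lower. A fold of at least 1.5 left 377 probe sets, 2 genes higher (MARCO and FCGR1A) and 0 lower. Array weights gave 5 genes higher, CD163 and CD14 added, and 0 lower, and the filter at the median level gave 4 higher, CD163 added, and 2 lower, MRC1 added. The random tumour block, trend and robust shrinkage, and the 3′ to 5′ covariate each gave 0 lower, since CSF1R lost its call. Leaving out 1 tumour at a time gave 1816 to 3171 probe sets, 3 to 5 genes higher and 0 to 2 lower. CD36 changed by -0.17 in the high spike-in tumours alone (limma adjusted p = 0.784). MARCO stayed between 1.55 and 2.27 and lost its call in the low spike-in tumours alone (limma adjusted p = 0.176). The cause of these differences was not tested. Before treatment MARCO had a median level of 4.97, a little below the median of all probe sets (5.28). Array values ran from 2.13 to 14.6. A low signal can limit the precision of a change.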
